A study of Mus musculus with 8 samples.

Results

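The α-arrestin genes Arrdc1, Arrdc2, Arrdc3, Arrdc4 and Txnip were examined together with Mlxip and Mlxipl, the genes of the glucose-sensing factors MondoA and ChREBP, which makes 7 of the 24054 genes measured. These genes were chosen on the values described here, mainly because Arrdc2 was far higher in 1 MI4KO mouse than in any other, so the difference between MI4KO and flox mice is given for them as a description, with fold changes and standard errors but no p-value, and nothing is read from how many of them passed a limit. Each gene has a single row, matched by its symbol, and all 7 passed the filter on low values.

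RNA was taken from SOL, the soleus, a slow postural muscle of the hindlimb, of 4 MI4KO mice and 4 flox mice, and each mouse gave a single stranded poly(A) library. All 8 animals were C57BL/6 males for which the sample labels give a high fat diet, and their age is not stated in the sources used here. MI4KO mice carried both floxed Irf4 alleles together with Myl1-Cre, and flox mice were littermates with both floxed alleles and no Cre. Since Cre is driven from Myl1, a gene of skeletal muscle fibers, the nuclei of other cell types in the muscle keep Irf4. Mice are numbered here from 1 to 4 within each group by ascending mouse number. The mouse numbers in the labels fall into a low range, which holds MI4KO mice 1 and 2 and flox mouse 1, and a high range, which holds the other 5 mice. What separates these ranges is not stated.

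α-Arrestins are adaptor proteins that share a fold with the arrestins of receptor signaling. They hold short motifs that bind NEDD4-family ubiquitin ligases, and so help to remove receptors and transporters from the cell surface. Txnip also binds and inhibits thioredoxin and restrains glucose uptake. MondoA and ChREBP enter the nucleus when glucose phosphates accumulate, pair with Mlx and bind carbohydrate response elements, paired E-box-like sequences for which Txnip and Arrdc4 are the best known targets. In skeletal muscle, Txnip is known to follow glucose supply and Arrdc2 to follow glucocorticoids and disuse.

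The sequence before the start site is shown for Txnip, Arrdc4 and Arrdc2. Txnip and Arrdc4 were taken as the best known targets of MondoA and ChREBP, and Arrdc2 because it stood apart in 1 mouse. RefSeq promoter windows of 300 bases, 250 before and 50 after the start site, on GRCm38.p6 were matched by symbol for all 7 genes, and only the 250 bases before the start site are printed, 5′ to 3′ on the strand of the gene. Capitals mark, in order along Txnip, a palindrome of the type bound by the glucocorticoid receptor (GNACA and TGTNC with 3 bases between them), a FoxO-type site (GTAAACA), and a pair of E-box-like sequences with their spacer. In Arrdc4 they mark an E-box (CACGTG), and in Arrdc2 the CCAAT boxes, read as ATTGG on this strand.
Txnip, chr3:96557707-96557956, plus strand: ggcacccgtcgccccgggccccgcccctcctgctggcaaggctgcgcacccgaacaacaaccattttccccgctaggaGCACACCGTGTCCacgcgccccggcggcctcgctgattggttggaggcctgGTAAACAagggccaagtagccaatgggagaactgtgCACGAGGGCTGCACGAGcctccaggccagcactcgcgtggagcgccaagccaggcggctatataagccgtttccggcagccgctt
Arrdc4, chr7:68749239-68749488, minus strand: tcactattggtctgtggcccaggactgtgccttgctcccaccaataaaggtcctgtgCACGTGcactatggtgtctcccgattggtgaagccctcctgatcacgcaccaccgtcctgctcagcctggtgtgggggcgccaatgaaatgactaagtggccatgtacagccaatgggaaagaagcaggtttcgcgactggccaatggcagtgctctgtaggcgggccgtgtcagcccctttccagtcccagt
Arrdc2, chr8:70839721-70839970, minus strand: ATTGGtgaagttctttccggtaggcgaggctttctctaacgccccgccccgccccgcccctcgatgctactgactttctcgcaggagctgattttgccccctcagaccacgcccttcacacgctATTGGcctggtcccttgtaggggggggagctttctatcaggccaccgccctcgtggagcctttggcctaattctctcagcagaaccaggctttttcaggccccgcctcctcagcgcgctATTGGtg

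Each motif was searched on both strands in 32851 RefSeq windows of the same length. The paired E-box-like sequences, each CACGNG or CNCGTG with 5 bases between them, begin 85 bases before the Txnip start and were held by 27 windows (0.0822%). A full E-box, which also meets the pattern of either member of such a pair, was held by 7.15% of windows and begins 193 bases before the Arrdc4 start. Arrdc4 held no match to the paired sequences within this window. The upstream Mlxipl promoter also holds an E-box. The FoxO-type site of Txnip was held by 3.65% of windows, the glucocorticoid-type palindrome of Txnip by 0.475%, and a CCAAT box by 37.4%. Arrdc2 held no match to the palindrome within this window, which says nothing of sequence elsewhere. No member held a motif of the interferon-stimulated type (GAAA, 2 bases, GAAA), to which IRF factors are known to bind and which was held by 3.44% of windows.

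The libraries held between 13417512 and 16384565 reads on genes, and 3 reads corresponded to values of 0.181 to 0.225 on the deposited scale, TMM-normalized CPM, in which each library is scaled so that most genes keep their level. These limits stand for counting error alone, as no molecular identifiers were used. Irf4, the deleted gene, was at 0.686, 1.46, 1.58 and 1.68 in flox mice 1 to 4 and at 0.725, 0.840, 0.266 and 1.03 in MI4KO mice 1 to 4, from 4 to 23 reads per mouse. Flox mouse 1 therefore lay within the range of the MI4KO mice. Slow-muscle markers were strongly expressed in all 8 mice, with a summed value of 48821 to 59161 for 8 genes, as the SOL label says. MI4KO mouse 3 and flox mouse 1 stood apart from the rest, each in its own way. In MI4KO mouse 3, 53 of 11865 genes tested exceeded the next highest mouse by over 1 log2 unit (0.447%), against 3 genes in flox mouse 1 and none in the other 6 mice. In flox mouse 1, all 20 liver markers were at their highest and summed to 261, against 10.0 to 38.1 in the other mice.

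The genes were expressed at very different levels when values were divided by the length of the longest coding transcript in GENCODE M21. Txnip (chromosome 3, 96557957 to 96561883 of GRCm38, plus strand) was by far the most abundant, at 137 ± 21.5 per kilobase in flox mice (SD, n = 4). Mlxipl (chromosome 5, 135089890 to 135138382, plus strand) followed at 20.2 ± 2.40 per kilobase, and Mlxip (chromosome 5, 123394798 to 123457932, plus strand) at 16.8 ± 2.52 per kilobase, and the flox values of these neighbours in the order overlapped. Then came Arrdc3 (chromosome 13, 80883384 to 80896042, plus strand) at 7.83 ± 1.68 per kilobase and Arrdc2 (chromosome 8, 70835129 to 70839720, minus strand) at 4.78 ± 1.70 per kilobase, whose flox values overlapped as well. Arrdc4 (chromosome 7, 68736995 to 68749241, minus strand) stood at 1.62 ± 0.182 per kilobase and Arrdc1 (chromosome 2, 24925352 to 24935252, minus strand) at 1.2 ± 0.072 per kilobase. The lowest Arrdc4 value among flox mice, 1.36 per kilobase, lay above the highest Arrdc1 value, 1.29. The order of the means was the same in MI4KO mice for every gene but Arrdc2, which in MI4KO mouse 3 reached 37.0 per kilobase and there passed Mlxipl, Mlxip and Arrdc3.

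**Figure D1:**
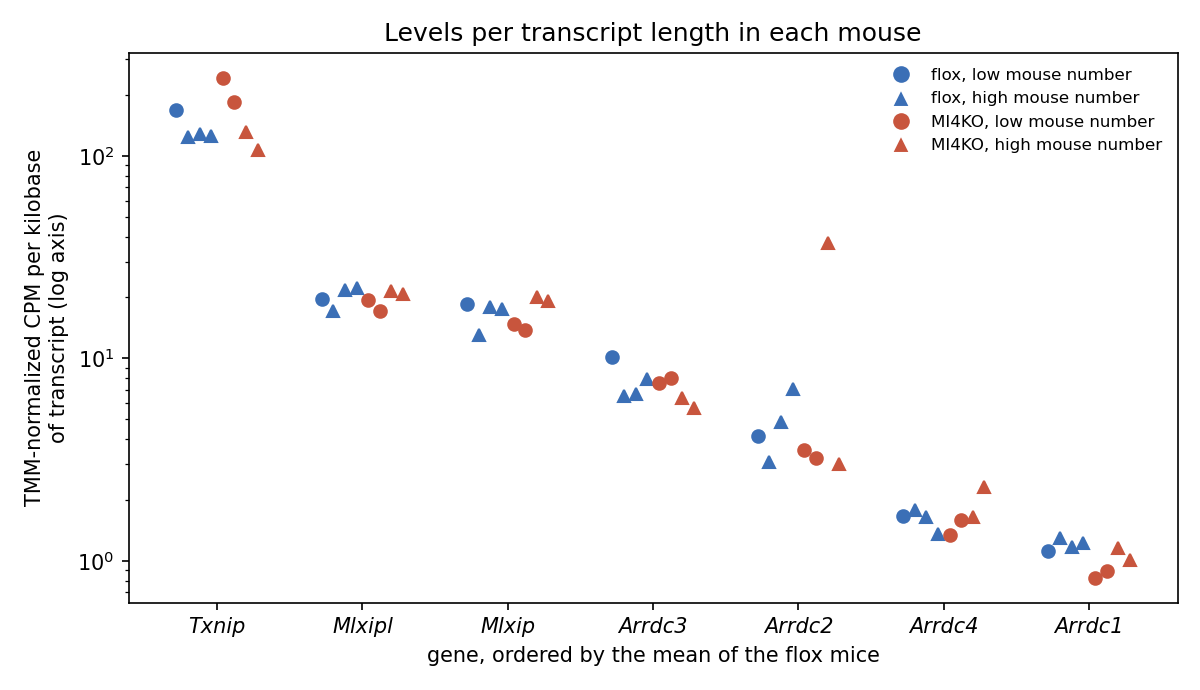
TMM-normalized CPM per kilobase of transcript (log axis) for each of the 7 genes in each of 8 mice, 1 point per mouse, blue for flox and red for MI4KO, circles for low and triangles for high mouse numbers. Txnip lies above all other genes in every mouse, and only Arrdc2 leaves its band, in MI4KO mouse 3 at 37.0.

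The question of the comparison is which of these genes change in SOL when Irf4 is lost from muscle fibers. None of the 7 passed the limits used for all genes, an unadjusted p under 0.05 with a change of at least 1.5-fold by limma, limits that 26 of 11865 genes passed (0.219%), of which 7 were higher in MI4KO mice and 19 were lower. Without MI4KO mouse 4, 58 genes passed. By limma, 0 genes had a Benjamini-Hochberg adjusted p under 0.05 and 399 an unadjusted p under 0.05. The other tools run on all mice also gave 0 genes at an adjusted p under 0.05, with 363 genes at an unadjusted p under 0.05 by edgeR and 248 by DESeq2. Values of MI4KO and flox mice overlapped for all 7 genes, and did not overlap for 246 genes (2.07%). Without MI4KO mouse 3, again none of the 7 passed the limits, which 32 genes passed (0.270%). Since the 7 genes were chosen on these values, these counts only describe them.

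Mlxip, the gene of MondoA, a glucose-sensing factor best known from muscle, was at 136, 95.7, 131 and 129 in flox mice 1 to 4 and at 108, 101, 148 and 140 in MI4KO mice 1 to 4, in TMM-normalized CPM. Flox mouse 2 and MI4KO mice 1 and 2 were the low animals, and the groups overlapped almost fully. The log2 fold change of Mlxip in MI4KO against flox mice, on the scale of log2(value + 1) used throughout, was 0.01 (standard error 0.14). Mlxipl, the gene of ChREBP, which drives lipogenic genes in liver and fat, was at 71.1, 61.8, 78.7 and 81.0 in flox mice and at 70.7, 62.1, 78.2 and 75.2 in MI4KO mice. It was the steadiest of the 7 genes, with a coefficient of variation of 10.2% over the 8 mice and a log2 fold change of -0.03 (standard error 0.10). The isoforms of ChREBP, which start at different promoters, are summed in this value. Mlx, the obligate partner of both factors and not 1 of the 7 genes, was at 12.8, 13.5, 14.0 and 13.8 in flox mice and at 12.3, 11.9, 11.4 and 12.1 in MI4KO mice. All MI4KO values of Mlx lay below all flox values, with a log2 fold change of -0.17 (standard error 0.08), and Mlx did not pass the limits (adjusted p = 1.0 by limma).

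Txnip, the inhibitor of thioredoxin and brake on glucose uptake, was at 477, 351, 361 and 356 in flox mice 1 to 4. In MI4KO mice 1 to 4, Txnip was at 686, 521, 370 and 302. The range in MI4KO mice thus enclosed that of flox mice, and the highest mice were MI4KO 1, MI4KO 2 and flox 1. Its log2 fold change was 0.22 (standard error 0.20) with all mice and 0.31 (standard error 0.20) without MI4KO mouse 3, and without MI4KO mouse 1 it was 0.02. Between 4811 and 9460 reads per mouse stood behind the Txnip values, so counting error was small beside the spread between mice.

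Arrdc4, the α-arrestin closest to Txnip in its response to glucose, was at 6.48, 7.01, 6.45 and 5.32 in flox mice and at 5.22, 6.21, 6.45 and 9.0 in MI4KO mice, from 72 to 149 reads. Its highest value was in MI4KO mouse 4, the mouse with the lowest Txnip, and its lowest in MI4KO mouse 1, the mouse with the highest Txnip. The groups overlapped, with a log2 fold change of 0.06 (standard error 0.15). Arrdc3, which targets β-adrenergic receptors and is tied to energy expenditure and adiposity, was at 41.6, 26.7, 27.5 and 32.6 in flox mice and at 31.1, 32.9, 26.3 and 23.4 in MI4KO mice. Flox mouse 1 was highest and MI4KO mouse 4 lowest, and the log2 fold change of Arrdc3 was -0.16 (standard error 0.14), which was -0.03 without flox mouse 1 and -0.07 without MI4KO mouse 4. Arrdc1, which recruits ESCRT proteins to form vesicles at the plasma membrane, had only 19 to 31 reads per mouse. It was at 1.87, 2.15, 1.95 and 2.04 in flox mice and at 1.38, 1.49, 1.93 and 1.69 in MI4KO mice. Only MI4KO mouse 3 reached the range of the flox mice, so that without it the groups of Arrdc1 did not overlap, which held for 623 of 11865 genes (5.25%). The log2 fold change of Arrdc1 was -0.20 (standard error 0.13) with all mice and -0.25 (standard error 0.14) without MI4KO mouse 3.

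Arrdc2, the α-arrestin known to follow glucocorticoids, was at 9.73, 7.21, 11.4 and 16.7 in flox mice 1 to 4. In MI4KO mice 1 to 4, Arrdc2 was at 8.27, 7.56, 87.2 and 7.13. MI4KO mouse 3 was 10.5 times the median of the other 7 mice, with 1312 reads against 104 to 229, while MI4KO mice 1 and 2 lay at the low end of the flox range and MI4KO mouse 4 just below it. The mean in MI4KO mice was accordingly 27.5 ± 39.8 (SD, n = 4), or 2.45 times the flox mean of 11.3 ± 4.01 (SD, n = 4). Without MI4KO mouse 3, the MI4KO mean of Arrdc2 was 7.65 ± 0.575 (SD, n = 3), or 0.680 of the flox mean. The direction of the difference was set by that mouse, with a log2 fold change of 0.39 (standard error 0.61) with all mice and -0.45 (standard error 0.19) without it. With edgeR on recovered reads, the log2 fold change of Arrdc2 was 1.26 with all mice and -0.51 without MI4KO mouse 3.

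**Figure D2:**
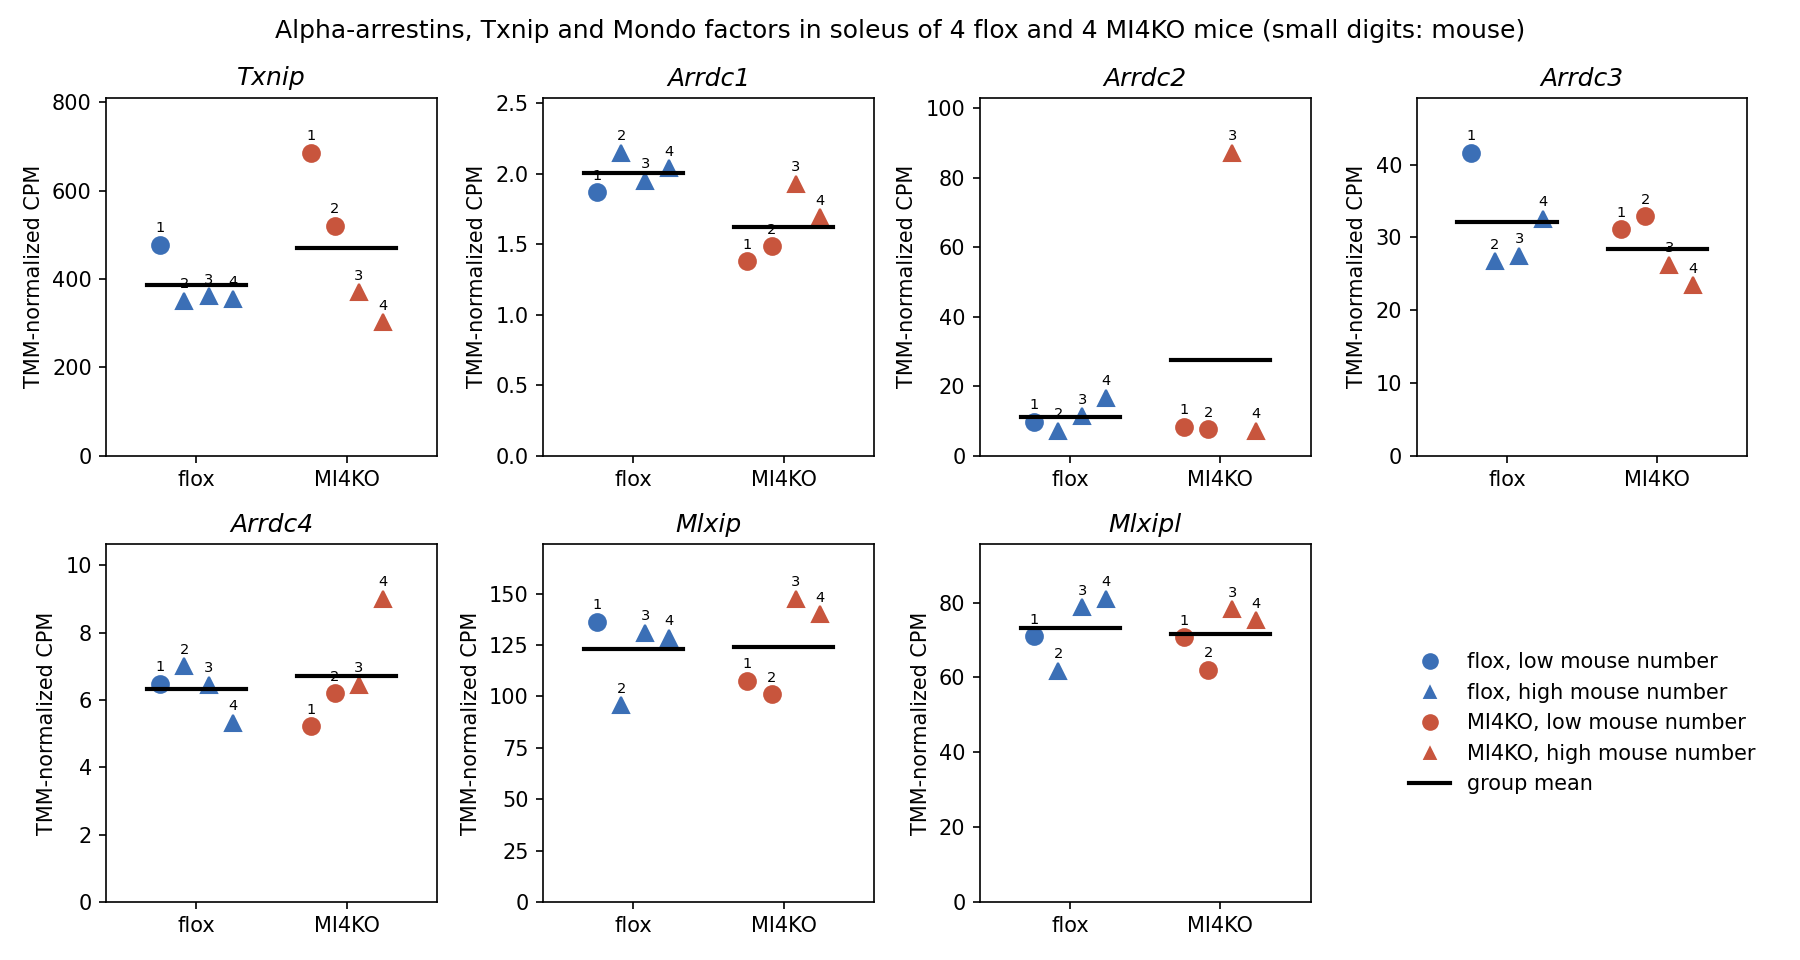
TMM-normalized CPM (linear axis from 0) of each of the 7 genes in flox (blue) and MI4KO (red) mice, with the mouse given by a small digit, circles for low and triangles for high mouse numbers, and the group mean as a black bar. Groups overlap in every panel, and MI4KO mouse 3 alone is high for Arrdc2, at 87.2.

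In MI4KO mouse 3, the high Arrdc2 went with high values of glucocorticoid-responsive genes and not with high values of the other α-arrestins. Mice were compared on log2(value + 1) by subtracting the median of the other 7 mice from MI4KO mouse 3, with no test since a single mouse is described. Arrdc2 was 3.25 log2 units above that median, and the other 6 genes lay between -0.24 and 0.20, with Txnip at 0.04. Besides Arrdc2, Mlxip was also at its highest in this mouse, and MI4KO mouse 3 was highest of all mice for 30.9% of all genes tested. Of 25 genes of a list of glucocorticoid-responsive genes, 22 (88.0%) were highest in MI4KO mouse 3, and the median of the list lay 1.04 log2 units above the other mice, against 0.07 over all genes tested. That list was chosen with earlier results of these data known, so these values only describe the mouse.

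The glucocorticoid-responsive genes farthest above the other mice were Mt1, Mt2 and Fkbp5. Mt1, a metallothionein that binds zinc, was at 190.7 in MI4KO mouse 3 and at 17.8 to 26.3 in the others. Its neighbour Mt2 was at 59.6 in that mouse and at 1.67 to 7.63 in the others. Fkbp5, a chaperone of the glucocorticoid receptor and a standard readout of its activity, was at 159 in MI4KO mouse 3 and at 19.4 to 31.2 in the others. These 3 genes were picked from the list as the farthest from the other mice. Their likeness to Arrdc2, with a single mouse beyond the range of both groups, follows from that choice.

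Circadian clock genes were mixed in MI4KO mouse 3. Of 18 tested, 6 were highest in it, a share (33.3%) near the 30.9% of all genes tested, and 6 were lowest in it, as were 13.3% of all genes tested. Nfil3, a repressor of clock output, was at 84.6 against 19.3 to 39.6 in the other mice. Dbp, an activator of clock output, was at 53.7 against 109 to 170, and Bhlhe41, a repressor in the clock, at 21.1 against 42.4 to 53.6. In the thioredoxin system, the target of Txnip, 16 of 21 genes tested were highest in MI4KO mouse 3, and the shifts were small, with a list median of 0.18 log2 units and a maximum of 0.49. The hour of collection is not given in the sources used here.

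Markers of other cells were also summed in each mouse. Neutrophil markers summed to 6.58 in MI4KO mouse 3 and to 1.2 to 2.18 in the others, with 5 of 9 markers in the table highest in it, and no marker was at 0 in all mice. Only 1 of these markers, Cxcr2, passed the filter on low values, and it was at 1.40 in MI4KO mouse 3, within the 0.600 to 1.69 of the others, so the higher sum came from markers under the filter. Adipocyte markers summed to 2117 in that mouse and to 2908 to 4267 in the others, with 0 of 8 highest in it. Macrophage markers summed to 64.5 against 45.5 to 60.4, with 3 of 8 highest, a share (37.5%) near that of all genes tested. Their part in the Arrdc2 value was not tested, and in bulk muscle fewer cells of a type and less RNA per cell cannot be told apart.

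**Figure D3:**
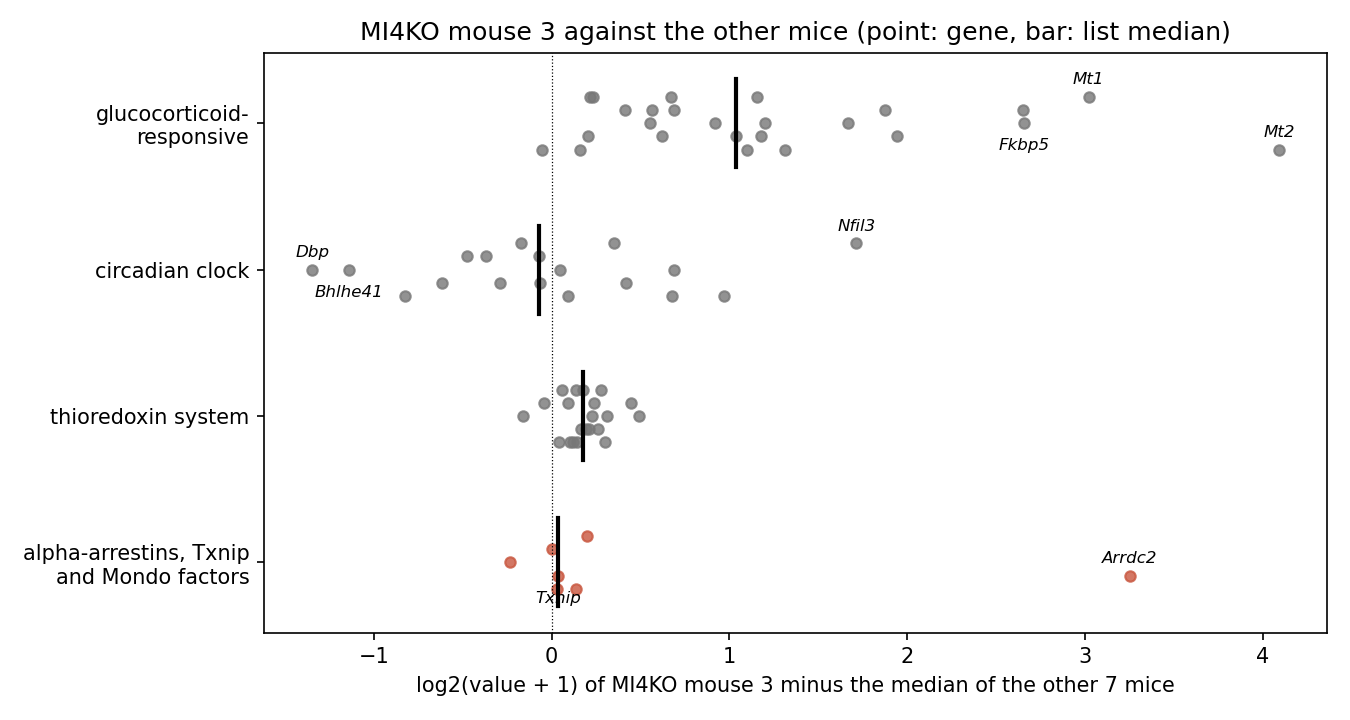
Difference in log2(value + 1) between MI4KO mouse 3 and the median of the other 7 mice (horizontal axis) for 4 gene lists (rows), 1 point per gene tested, with the list median as a black bar and the 7 genes described here in red. Arrdc2 lies at 3.25 among Mt1, Mt2 and Fkbp5, while the other α-arrestins and Txnip lie near 0. Mt1, Mt2 and Fkbp5 were picked as the farthest out of their list in this mouse, and Arrdc2 was chosen on its value in it.

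Txnip and Arrdc3 were higher in mice of the low number range, of both genotypes, than in mice of the high range. The 3 mice with low numbers, MI4KO 1, MI4KO 2 and flox 1, held Txnip at 477 to 686 and the 5 mice with high numbers at 302 to 370. The ranges of Txnip did not overlap, with a mean of 562 ± 110 (SD, n = 3) against 348 ± 26.7 (SD, n = 5). Without overlap, 112 of 11865 genes were higher in low-number mice (0.944%) and another 470 were lower. In a limma fit of genotype and range together, Txnip was 0.66 log2 units higher in low-number mice (standard error 0.12). This passed the limits that 78 genes passed (0.657%), 14 higher and 64 lower in low-number mice, but the adjusted p of Txnip was 0.304 by limma. The Txnip difference was 0.52 without MI4KO mouse 1 and 0.55 without MI4KO mouse 4, both under 1.5-fold, while the count of genes past the limits was 372 without flox mouse 1 and 155 without MI4KO mouse 4. Without flox mouse 1 no flox mouse has a low number, so the range is then estimated among MI4KO mice alone. The comparison of ranges was made after the values were seen.

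With range in the fit, the log2 fold change of Txnip between MI4KO and flox mice was 0.06 (standard error 0.11), against 0.22 without it. In the same fit, that of Arrdc3 was -0.27 (standard error 0.09), against -0.16 without range. Within the low-number mice, Txnip had a mean of 604 in the 2 MI4KO mice and was at 477 in the single flox mouse. Within the high-number mice, the mean of Txnip was 336 in 2 MI4KO mice and 356 in 3 flox mice, so the direction differed between ranges, a difference that was not tested. Arrdc3 was at 31.1 to 41.6 in low-number mice and at 23.4 to 32.6 in high-number mice, ranges that overlapped through flox mouse 4. In the same limma fit Arrdc3 was 0.43 log2 units higher in low-number mice (standard error 0.10, adjusted p = 0.510), and the fold stayed under 1.5. The other 5 genes did not pass the limits between ranges. The difference of Arrdc2, low-number minus high-number mice, was -0.99 log2 units (standard error 0.59) with all mice and -0.03 without MI4KO mouse 3. Without MI4KO mouse 4 it was -1.65 and passed the limits, with an adjusted p of 0.527 by limma.

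Other lists were compared along the same split. Endothelial markers, which report on the vessels of the muscle, summed to 338 to 446 in low-number mice and to 463 to 531 in high-number mice, with none of 8 markers at 0 in all mice, but none of the 8 passed the limits on its own (list median -0.29 log2 units). Adipocyte markers had a list median of -0.33 log2 units with none of 7 past the limits, and their sums overlapped, at 3352 to 4267 in low-number and 2117 to 4178 in high-number mice. Without MI4KO mouse 3, 2 adipocyte markers, Cfd and Adipoq, were lower past the limits. Past the limits, 64 of 11865 genes were lower in low-number mice with all mice in the fit (0.539%), and 48 of 11865 without MI4KO mouse 3. Of 25 glucocorticoid-responsive genes, 4 were lower past the limits, Fkbp5, Per1, Sgk1 and Gadd45g, and none was higher. MI4KO mouse 3 lies in the high range, and without it only Sgk1 and Gadd45g were lower past the limits and 1 gene of that list was higher. The difference of Fkbp5 was then -0.38 log2 units, against -1.10 with all mice. Of 19 glucose-responsive targets of MondoA and ChREBP tested, 1 was lower past the limits, Pnpla3, a lipase-family gene of lipid droplets, and none was higher. Pnpla3 no longer passed without MI4KO mouse 3, while Rgs16 and Fasn then did. Of 18 clock genes, 2 were lower, Arntl and Per1, neither of which passed without that mouse, and of 3 liver markers tested 1 was higher, Cyp2e1. The genes of this comparison were named after their values were seen. The part of these lists in the Txnip value was not tested. Flox mouse 1 was also the mouse with the liver markers, and in the other 2 mice with high Txnip these markers summed to 10.0 and 31.2.

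**Figure D4:**
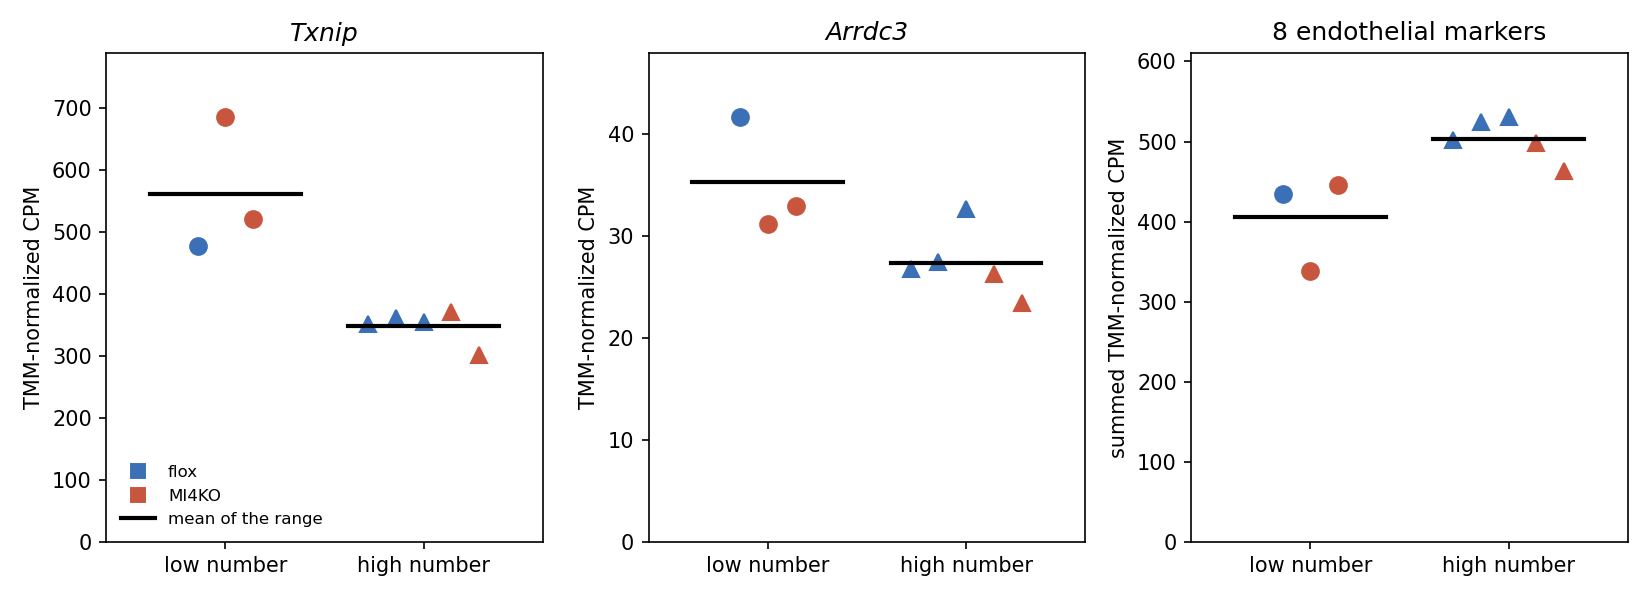
TMM-normalized CPM of Txnip and Arrdc3, and the summed TMM-normalized CPM of 8 endothelial markers, in mice with low and high numbers (linear axes from 0), 1 point per mouse, blue for flox and red for MI4KO, with the mean of each range as a black bar. Txnip lies at 477 to 686 in low-number mice and at 302 to 370 in high-number mice, with flox mouse 1 as the only flox mouse of the low range.

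Among the 21 pairs of genes over 8 mice, no correlation of log2(value + 1) had an adjusted p under 0.05 by exact two-sided permutation tests, and 2 had an unadjusted p under 0.05. Without MI4KO mouse 4, 1 pair had an adjusted p under 0.05. Mlxip and Mlxipl, the glucose-sensing factors, had Pearson r = 0.84 (exact permutation p = 0.0122, adjusted p = 0.255) and Spearman rho = 0.62 (exact permutation p = 0.115, adjusted p = 0.483). Without the 2 mice farthest from the median of Mlxip, r was 0.43. In the pairs with Txnip given below, the farthest mice are those farthest from the median of its partner. Leaving out the farthest mice also narrows the range of values, so a lower r cannot show what a relation rested on. Arrdc1 and Txnip had r = -0.74 (exact permutation p = 0.0334, adjusted p = 0.350) and rho = -0.64 (exact permutation p = 0.0962, adjusted p = 0.483), and r was 0.17 without the 2 farthest mice. Txnip and Arrdc4, the pair of genes best known as shared targets of MondoA, had r = -0.64 (exact permutation p = 0.0866, adjusted p = 0.499) and rho = -0.69 (exact permutation p = 0.0694, adjusted p = 0.483), with r = 0.03 without the 2 farthest mice. For Txnip and Arrdc2, r was -0.21 (exact permutation p = 0.646, adjusted p = 0.823) and rho 0.26 (exact permutation p = 0.536, adjusted p = 0.751), with r = 0.07 without the 2 farthest mice. These relations pool both ranges of mouse numbers, and neither range holds the 6 mice needed to give them within it.

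The genes whose pattern over the mice was most like that of Txnip or of Arrdc2 were then sought. Among 11858 genes, Luc7l2, a splicing factor gene, had the highest Pearson r with Txnip over 8 mice, 0.96, followed by C330018D20Rik, Tmed10, Snrpb2 and Gm2382 down to 0.92. Without MI4KO mouse 3, Gsr, the gene of glutathione reductase, was closest to Txnip, with r = 0.98 over 7 mice, ahead of Luc7l2, C330018D20Rik, Commd8 and Tmed10. Gsr was at 36.9 in MI4KO mouse 1, where Txnip was highest, and at 29.6 in MI4KO mouse 4, where Txnip was lowest. For Arrdc2 over 8 mice, the closest genes were Slc39a9, a zinc transporter gene, with r = 0.99, then Phb2, Gbp10, Lzts2 and Pcx, all of which were highest in MI4KO mouse 3. Gbp10, a guanylate-binding protein gene, was at 209 in MI4KO mouse 3 and at 23.2 to 49.6 in the others. Without that mouse the closest to Arrdc2 were Ldb1, Ddx49, Tmem9, Tprn and again Slc39a9, with r from 0.96 to 0.99 over 7 mice. These values pool mice that differ in genotype, range and depth, and no test was made of them.

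The wider pathway held no gene past the limits between MI4KO and flox mice. Of 137 genes tested on 9 lists, 0 passed the limits that 0.219% of all genes passed, and 1, Arrb1, had an unadjusted p under 0.05. Left-out mice brought in Dbp (without flox mouse 1 or MI4KO mouse 2) or Dbp and Scd1 (without MI4KO mouse 4). Values of MI4KO and flox mice did not overlap for 3 of the 137 genes, Arrb1, Mlx and Wwp2, against 2.07% of all genes tested. Arrb1, β-arrestin 1, which desensitizes receptors, was at 11.7 ± 0.604 in flox mice and at 9.15 ± 1.17 in MI4KO mice (SD, n = 4 each), and the groups did not overlap. Its log2 fold change was the lowest of the 6 other arrestin-fold genes tested, at -0.33 (standard error 0.10, adjusted p = 1.0 by limma). The highest of that list was Vps26a, a retromer subunit, at 0.03.

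Among 9 partners of the Mlx network tested, the log2 fold changes ran from -0.17 for Mxd4 to 0.09 for Mxd1, both repressors that pair with Mlx or Max. Among 19 glucose-responsive targets of MondoA and ChREBP, they ran from -0.45 (standard error 0.35) for Scd1, a desaturase of fatty acids, to 0.26 (standard error 0.18) for Elovl6, a fatty acid elongase. Among 21 genes of the thioredoxin system, the lowest was Prdx4, a peroxiredoxin of the endoplasmic reticulum, at -0.24, and the highest Srxn1, which restores oxidized peroxiredoxins, at 0.17. The medians of these 3 lists were 0.01, 0.02 and 0.03, and the median over all genes tested was -0.01.

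The ligases and sorting proteins that α-arrestins recruit stayed within small differences. Among 10 NEDD4-family ligases and adaptors, log2 fold changes ran from -0.22 for Nedd4l to 0.10 for Wwp1, both ubiquitin ligases. Wwp2, a ligase of the same family, was at 29.0 to 31.8 in flox mice and 26.8 to 28.8 in MI4KO mice. Among 21 ESCRT genes, which sort ubiquitinated cargo into vesicles, values ran from -0.11 for Vps37c to 0.11 for Vps36. Among 11 known cargo genes, they ran from -0.28 for Itgb4, an integrin subunit, to 0.17 for Slc2a1, the glucose transporter GLUT1. The medians of these lists were -0.02, 0.01 and -0.01. For 25 glucocorticoid-responsive genes, the ends were Dusp1, a MAP kinase phosphatase, at -0.23 and Mt2 at 0.94, and the median was 0.11, with 18 genes above 0. Without MI4KO mouse 3 that median turned to -0.11, with 22 of the 25 genes below 0. For 18 clock genes, they were Dbp at -0.51 and Nfil3 at 0.32, with a median of -0.09. Mt2, Dbp and Nfil3 are also genes in which MI4KO mouse 3 stood apart, and their values in that mouse are given above.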

How the data were processed

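Soleus RNA-seq of 4 MI4KO and 4 flox mice was analysed. The signal that the authors deposited, TMM-normalized CPM of each gene in each mouse, was made with Bowtie2 2.1.0, RSEM 1.2.15 and edgeR on mm10. The deposited fold-change scores and p-values hold the authors' own comparison and were not used. Dividing by the smallest step of each mouse gave whole reads (100% of values above 0, within 0.02 reads), in all 13417512 to 16384565 per mouse.

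Values were compared with limma 3.58.1 (R 4.3.3) after log2(value + 1), with a trend of variance on mean, over the 11865 genes that reached 1 in 4 or more mice, since the values are not counts. edgeR 4.0.16 and DESeq2 1.42.0 on recovered reads were alternatives, beside another pseudocount, filter, scaling, covariate and left-out mice. Correlations used exact permutation tests (scipy 1.17.1). Each mouse gave 1 library.

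The genes and lists were chosen with earlier results of these data known. Named genes are the 7 genes, Irf4, the ends of each list, the 5 genes most like Txnip or Arrdc2, and the 3 glucocorticoid and clock genes farthest from other mice in MI4KO mouse 3. Mlx, Wwp2 and the genes differing by mouse number were picked with their values in view. Of the marker lists, 1 liver and 1 adipocyte gene were lower in MI4KO mice past the limits and no slow muscle, fast muscle, neutrophil, macrophage or endothelial gene was. At least 1 liver gene passed in 17 of 20 alternatives, not with robust estimation or without flox mouse 1, and at least 1 adipocyte gene in 4 of 20, not with other scalings, edgeR or DESeq2. Fast-muscle markers summed to 22232 to 31577, with the highest sum in MI4KO mouse 3. Promoter sequences are from RefSeq on GRCm38.p6.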

Additional observations from a re-analysis of the deposited data

Results flagged for a closer look

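In each group of 4 mice, the distance of the highest and of the lowest mouse from its nearest neighbour was set against the range of the group for the 7 genes. Gaps and ranges were taken on log2(value + 1), while the levels printed beside them are TMM-normalized CPM, on which the shares differ. Over these 14 groups, 3 mice lay farther out than Dixon's 95% limit for 4 values. Chance alone marks about 1 group in 20. The count cannot be set against that rate, because it includes the Arrdc2 value on which the genes were chosen. For Arrdc2, MI4KO mouse 3 at 87.2 lay above the 7.13 to 8.27 of the other MI4KO mice, with a gap of 0.945 of the group's range, and as the genes were chosen on this value it is repeated here as a description and not as a test. For Txnip, flox mouse 1 at 477 lay above the 351 to 361 of the other flox mice, with a gap of 0.910 of the range, and this was the only flox mouse with a low number and the mouse with the liver markers. For Mlxip, flox mouse 2 at 95.7 lay below the 129 to 136 of the other flox mice, with a gap of 0.833 of the range, and Mlxipl was also lowest among flox mice in it, at 61.8.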

How the results depend on the processing

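The count of genes past the limits between MI4KO and flox mice, 26, became 60 with a pseudocount of 0.25, 13 with robust estimation, 65 with edgeR, 51 with DESeq2, 41 without flox mouse 1 and MI4KO mouse 3, and 72 with edgeR without MI4KO mouse 3, an alternative chosen after seeing the data. It ranged from 19 to 58 with single mice left out, the 58 without MI4KO mouse 4. The count on the 9 pathway lists, 0, became 2 with edgeR (Mt1 and Mt2) and 1 with DESeq2 (Mt2), and ranged from 0 to 2 with single mice left out: Dbp without flox mouse 1 or MI4KO mouse 2, and Dbp and Scd1 without MI4KO mouse 4. The count of correlated pairs ranged from 0 to 1 in the same way, with 1 without MI4KO mouse 4. None of the 7 genes passed the limits in any of 20 alternatives. Arrdc2 kept its sign in 16 of 20 and turned in the 4 without MI4KO mouse 3. Arrdc1 and Txnip kept theirs in all 20, Arrdc3 in 19, Arrdc4 in 18, Mlxipl in 15 and Mlxip in 14. Arrdc1 fell to -0.35 with edgeR without MI4KO mouse 3. DESeq2 gave Arrdc2 no p. Between ranges of mouse numbers, the count of 78 became 139 with a pseudocount of 0.25, 124 without the filter, 47 with robust estimation, 139 with edgeR and 284 without flox mouse 1 and MI4KO mouse 3, and ranged from 58 to 372 with single mice left out, with 372 without flox mouse 1 and 155 without MI4KO mouse 4. The Txnip difference between ranges kept its direction in all 16 alternatives, and fell under 1.5-fold without MI4KO mouse 1 (0.52) or MI4KO mouse 4 (0.55). It ran from 0.52 without MI4KO mouse 1 to 0.98 without flox mouse 1 and MI4KO mouse 3. With that last fit left aside, the adjusted p of Txnip by limma ran from 0.0625 without flox mouse 1 to 0.806 without the filter. The Arrdc2 difference between ranges, -0.99, passed the limits without MI4KO mouse 4 (-1.65) and turned to 0.13 without flox mouse 1 and MI4KO mouse 3. The causes were not tested. No paired analysis was possible because the labels give each mouse its own number and the groups share none. With 19 to 31 reads, Arrdc1 allows only large differences to be seen.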
